A study of Mus musculus with 6 samples.

Results

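The 33 genes described here encode proteins of homologous recombination and of the Fanconi anaemia pathway. They were taken by name from the deposited table of 28212 mouse genes, and all 33 were found once each. Messenger RNA was sequenced from the mouse LD-1 line, which derives from cholangiocarcinoma, a tumour of the bile ducts, either stimulated with hepatocyte growth factor (HGF) or left as a control, with 3 libraries per group. The stated purpose was to learn how HGF alters expression in cholangiocarcinoma cells. The labels give no dose, no time of exposure and no number of clones or cultures, they describe the material both as the cell line and as mouse tumour tissue, and their extraction text speaks of an adipose type. Nothing says that the libraries came from separate cultures, so p-values reflect library-to-library spread that could be technical.

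Homologous recombination repairs a broken chromosome by copying the intact sister. The MRE11-RAD50-NBN complex senses and trims the ends, BRCA1 with BARD1 and PALB2 brings in BRCA2, and BRCA2 loads the recombinase onto single-stranded DNA. The Fanconi pathway unhooks crosslinks between the strands. Its core complex is recruited by FANCM, attaches ubiquitin to the FANCD2-FANCI clamp, and so brings in nucleases through SLX4. Both pathways act mainly while DNA is replicated, and the kinases ATM and ATR with their targets CHEK2 and CHEK1 halt the cell cycle meanwhile.

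Among these genes, 12 of 33 fell and 2 rose after HGF. Those that fell include Fancm, Fanca, Fancg and Fance of the Fanconi core complex and its anchor, Brca2 with the BRCA partner genes Palb2 and Brip1, the recombinase paralog Xrcc2, both Rad54 genes, and the kinases Atr and Chek2. The 2 that rose were Rad51d and Mre11a. The other 19 did not pass the test, among them Brca1, Bard1, Atm, Chek1, Fancd2 and Fanci. Most changes were modest, the largest being a fall of 40.2% for Fancm. Calls are those of edgeR's quasi-likelihood test on the deposited counts with Benjamini-Hochberg adjustment over 17322 genes at a threshold of 0.05, and of all these genes 38.5% were called, 19.3% as lower and 19.1% as higher. Fold changes are log2 HGF minus control ± SE.

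The median log2 fold change of the 33 genes was -0.22, where that of all genes tested was -0.02. The members were chosen with earlier results of these data known, so this contrast is a description and not a test. The estimate was negative for 27 members and positive for 6. After scaling by trimmed mean of M-values (TMM), no HGF library overlapped a control in 18 members (51.4% of all genes tested), 15 of them lower with HGF (26.5% of all genes) and 3 higher (24.9% of all genes). Scaling by library totals alone moved the median of all genes to -0.13 and gave 18 members lower and 1 higher. It split all calls into 2361 higher and 4941 lower genes, in place of 3316 higher and 3349 lower.

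**Figure D1:**
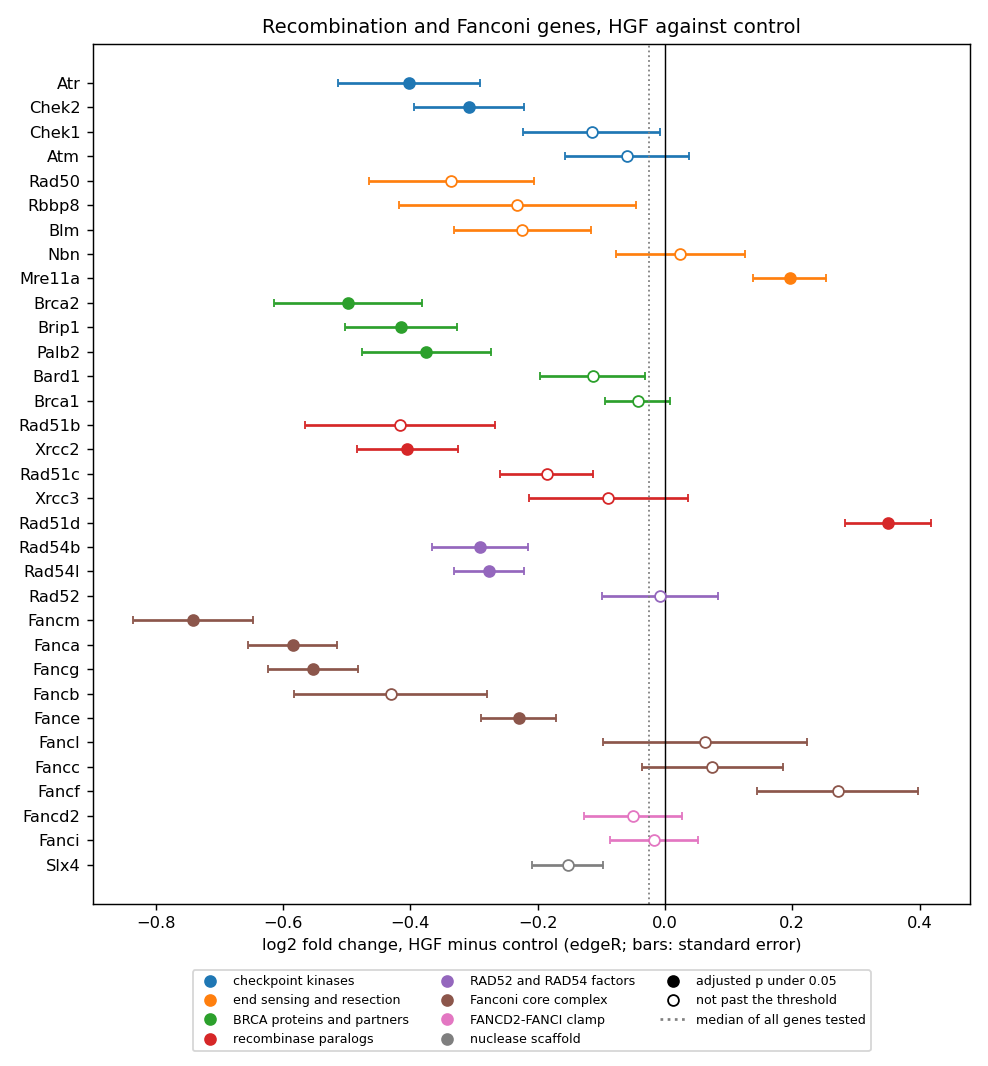
Log2 fold change of each of the 33 genes (x axis, HGF minus control; bars, standard error), ordered by the role of the protein (y axis, colours). Filled points passed adjusted p 0.05, 12 on the lower side and 2 on the higher, and the dotted line is the median of all genes tested at -0.02.

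Levels are given as the deposited FPKM, in which fragments are divided by gene length and sequencing depth, and these were proportional to the counts of each gene and library. They lack the TMM scaling of the test, so an HGF value looks lower beside its control than the fitted fold change does. Counts per member and library ranged from 202 to 5693, and all 33 passed the filter on low counts. Library totals lay between 57073866 counts (Control 3) and 66302502 counts (Control 1). Member levels spanned 0.450 FPKM (Brca2 in HGF 1) to 12.1 FPKM (Chek2 in Control 1), and 6 members were under 1 FPKM in at least 1 library. The median of the members was 2.77, 3.16 and 3.12 FPKM in the HGF libraries and 3.69, 4.14 and 3.77 FPKM in the controls.

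Markers in the libraries bear on how the groups compare. The bile duct keratins Krt19, Krt8 and Krt18 and the osteopontin gene Spp1 had at least 7302 counts in every library, whereas Krt7 and Epcam had at most 297, and 14 such markers summed to 2752 to 2772 CPM with HGF against 1514 to 1540 in controls (CPM, counts scaled to library size). Control 3 stood apart, with 12 skeletal muscle markers at a summed 671 CPM against 4.85 to 5.05 in the other controls and 4.17 to 6.88 with HGF, and with 12 macrophage markers at 231 against 78.9 to 87.9 in the other controls and 119 to 128 with HGF. The macrophage gene Adgre1 and the muscle gene Myh4 had 963 and 8320 counts there. In the HGF libraries 16 hepatocyte markers summed to 29.5 to 47.5 CPM, against 2.35 to 8.34 in controls, and 10 fibroblast markers to 653 to 680 against 263 to 282. No marker of these lists was at 0 in all 6 libraries, although Myh4 and Myh1 were at 0 in all but Control 3. In bulk RNA, fewer cells of a type and less RNA per cell cannot be told apart. Without Control 3, 12 members were lower and 1 was higher, the call for Mre11a being lost, and the part of the other markers in the results was not tested.

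Start regions are shown for the 8 genes with the largest falls among those that have a window, and for Mre11a, which rose, because the motif words counted in them were not used to choose the genes. RefSeq (GRCm38.p6) windows from 250 bases before to 50 after the RefSeq gene start were matched by symbol for 26 members. That start can differ from the deposited one. The Fancc window, chr13:63431696-63431995 (minus strand), lies inside a gene deposited as ending at 63497278. The windows of Slx4, Fancl, Chek1 and Fanci also lie inside the deposited genes, and all were counted as the others were. Most of the Fancg window, with its marked word, lies inside a gene deposited as ending at 43010506. Fancd2, Nbn, Rad50, Rad51d, Rad54b, Rbbp8 and Xrcc2 were not used here. Capitals mark CCAAT, the box bound by NF-Y, and the words TTTCCCGC, TTTGGCGC, TTTCGCGC and TTTGCCGC, forms of the site bound by E2F factors, on either strand (ATTGG and GCGGGAAA are reverse complements), and no marked words overlapped. The windows are chr12:65075353-65075652 (plus strand), chr8:123318527-123318826 (minus), chr4:43010252-43010551 (minus), chr5:150522371-150522670 (plus), chr11:86201144-86201443 (minus), chr9:95857347-95857646 (plus), chr7:122132897-122133196 (minus), chr5:110839733-110840032 (plus) and chr9:14784404-14784703 (plus), in the order of the lines, each 5′ to 3′ along the gene.
Fancm: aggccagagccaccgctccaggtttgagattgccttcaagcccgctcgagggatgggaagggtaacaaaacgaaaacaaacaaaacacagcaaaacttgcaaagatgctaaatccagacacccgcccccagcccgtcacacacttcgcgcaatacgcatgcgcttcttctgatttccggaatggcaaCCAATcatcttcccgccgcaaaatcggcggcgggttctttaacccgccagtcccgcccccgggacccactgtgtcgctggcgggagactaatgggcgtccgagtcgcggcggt
Fanca: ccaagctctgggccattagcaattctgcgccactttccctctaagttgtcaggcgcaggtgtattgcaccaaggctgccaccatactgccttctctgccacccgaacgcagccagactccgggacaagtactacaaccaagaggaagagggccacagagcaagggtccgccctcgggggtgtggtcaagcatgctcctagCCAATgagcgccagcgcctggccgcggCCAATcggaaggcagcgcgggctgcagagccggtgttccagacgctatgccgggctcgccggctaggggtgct
Fancg: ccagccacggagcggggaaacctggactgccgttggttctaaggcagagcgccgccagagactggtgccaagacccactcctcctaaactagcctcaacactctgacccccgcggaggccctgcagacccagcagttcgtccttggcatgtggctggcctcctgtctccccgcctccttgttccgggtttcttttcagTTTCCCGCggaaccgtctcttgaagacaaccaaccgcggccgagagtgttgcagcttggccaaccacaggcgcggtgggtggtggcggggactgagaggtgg
Brca2: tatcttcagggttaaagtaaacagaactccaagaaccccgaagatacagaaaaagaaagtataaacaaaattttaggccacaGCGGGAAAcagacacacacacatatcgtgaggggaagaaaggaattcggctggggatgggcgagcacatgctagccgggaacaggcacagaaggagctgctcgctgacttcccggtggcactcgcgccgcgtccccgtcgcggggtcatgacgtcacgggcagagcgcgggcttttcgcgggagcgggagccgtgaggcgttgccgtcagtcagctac
Brip1: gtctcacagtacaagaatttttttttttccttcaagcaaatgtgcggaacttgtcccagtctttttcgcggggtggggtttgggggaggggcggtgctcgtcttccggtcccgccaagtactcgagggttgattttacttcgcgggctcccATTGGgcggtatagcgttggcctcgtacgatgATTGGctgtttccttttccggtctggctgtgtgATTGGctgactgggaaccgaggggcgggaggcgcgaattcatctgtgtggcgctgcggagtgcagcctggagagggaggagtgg
Atr: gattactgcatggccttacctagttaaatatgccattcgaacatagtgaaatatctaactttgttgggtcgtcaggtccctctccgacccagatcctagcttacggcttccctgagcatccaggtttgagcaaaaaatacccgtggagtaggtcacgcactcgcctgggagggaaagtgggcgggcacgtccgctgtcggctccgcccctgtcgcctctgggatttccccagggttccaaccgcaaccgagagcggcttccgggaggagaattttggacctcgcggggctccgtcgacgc
Palb2: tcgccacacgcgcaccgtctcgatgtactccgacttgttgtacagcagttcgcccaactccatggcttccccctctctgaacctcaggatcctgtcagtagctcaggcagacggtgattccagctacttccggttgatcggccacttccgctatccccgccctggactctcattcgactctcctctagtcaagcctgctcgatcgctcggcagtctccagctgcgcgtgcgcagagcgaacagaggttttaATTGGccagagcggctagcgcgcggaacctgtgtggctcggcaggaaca
Chek2: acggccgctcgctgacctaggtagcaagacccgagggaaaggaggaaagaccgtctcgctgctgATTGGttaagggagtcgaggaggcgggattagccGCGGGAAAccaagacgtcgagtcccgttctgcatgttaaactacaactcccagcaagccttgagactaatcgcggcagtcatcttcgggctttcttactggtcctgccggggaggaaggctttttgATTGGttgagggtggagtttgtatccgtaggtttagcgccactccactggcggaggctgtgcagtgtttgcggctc
Mre11a: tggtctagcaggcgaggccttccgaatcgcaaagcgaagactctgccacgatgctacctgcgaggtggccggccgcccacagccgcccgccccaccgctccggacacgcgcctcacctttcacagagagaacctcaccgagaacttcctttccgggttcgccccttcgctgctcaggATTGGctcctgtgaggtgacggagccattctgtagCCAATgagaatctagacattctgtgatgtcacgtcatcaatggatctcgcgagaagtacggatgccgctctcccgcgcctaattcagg

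CCAAT was present in 17 of 26 member windows (65.4%), and in 39.0% of the 11632 windows that could be matched to tested genes. It stood in 7 of the 10 windows of genes that fell, in 9 of 15 that did not pass the test, and in that of Mre11a, which rose. Brip1 carries 3 copies, all as ATTGG, between 99 and 30 bases before the start, and Fanca carries a pair within 50 bases before it. The Atr window holds 0 marked words, and that of Palb2 holds 1, an ATTGG just after the start. One of the 4 E2F words was present in 5 of 26 member windows (19.2%) and in 3.88% of tested windows, namely in Fancg, Brca2 and Chek2, which fell, and in Bard1 and Rad51c, which did not pass the test. GGGCGG, the box of SP1, which overlaps an ATTGG in Brip1, was present in 17 of 26 member windows and 61.4% of tested windows. TTTGAA, a form of the CHR element of mitotic genes, was present in 1 of 26 and in 12.5%. A match is a description of letters in these windows and does not show that a factor binds there.

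The Fanconi core complex and its anchor held the largest changes, with 4 of 8 genes lower and 0 higher. Fancm (ENSMUSG00000055884, chromosome 12, 65075603 to 65132058, plus strand), the DNA translocase that anchors the core complex at stalled forks, had 0.765, 0.903 and 0.853 FPKM with HGF, against 1.43, 1.62 and 1.46 FPKM in controls. Every HGF library was below every control (log2 -0.74 ± 0.09, adjusted p = 4.04e-04). Fanca (ENSMUSG00000032815, chromosome 8, 123268300 to 123318576, minus strand), which forms a subcomplex with FANCG, had 4.98, 4.47 and 4.21 FPKM with HGF, against 7.66, 7.25 and 6.97 FPKM in controls. It fell by 33.3% with no overlap (log2 -0.58 ± 0.07, adjusted p = 2.95e-04), and its CCAAT pair lies in the window above. Fancg (ENSMUSG00000028453, chromosome 4, 43002343 to 43010506, minus strand), the scaffold that binds FANCA, had 3.90, 3.55 and 3.68 FPKM with HGF, against 5.74, 6.11 and 5.62 FPKM in controls. The estimate was close to that of Fanca (log2 -0.55 ± 0.07, adjusted p = 4.06e-04), and the ratio of the 2 genes is given below. Fance (ENSMUSG00000007570, chromosome 17, 28313519 to 28326572, plus strand), the bridge from the core complex to FANCD2, had 8.33, 7.77 and 8.45 FPKM with HGF, against 10.3, 10.2 and 10.2 FPKM in controls. The controls had an SD of 0.0634 FPKM, and the fall was 14.7% (log2 -0.23 ± 0.06, adjusted p = 0.0138).

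The other 4 core genes did not pass the test, and their estimates went both ways. Fancb, a partner of the catalytic subunit FANCL, had 1.74, 1.80 and 2.34 FPKM with HGF, against 2.44, 3.26 and 2.77 FPKM in controls. The groups overlapped after TMM scaling, and the estimate just missed the threshold (log2 -0.43 ± 0.15, adjusted p = 0.0514). Fancl, the ubiquitin ligase subunit itself, had 1.35, 1.90 and 1.95 FPKM with HGF, against 1.91, 1.62 and 1.79 FPKM in controls, and HGF 1 was the lowest of all 6 libraries (log2 0.06 ± 0.16, adjusted p = 0.793). Fancc, which binds FANCE, averaged 1.21 ± 0.0726 FPKM with HGF and 1.23 ± 0.174 FPKM in controls (SD, n = 3 each; log2 0.07 ± 0.11, adjusted p = 0.64 in edgeR). Fancf, an adaptor that links parts of the core complex, had 3.71, 3.81 and 3.87 FPKM with HGF, against 3.76, 2.89 and 3.42 FPKM in controls. After TMM scaling its HGF libraries lay above all controls, and the test missed the threshold (log2 0.27 ± 0.13, adjusted p = 0.124). The signs for Fancl and Fancc turned with scaling by library totals.

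The clamp that the core complex modifies showed no call. Fancd2 had 5.06, 5.10 and 4.45 FPKM with HGF, against 5.80, 5.44 and 4.93 FPKM in controls (log2 -0.05 ± 0.08, adjusted p = 0.652). Fanci, which encodes its partner, had 5.49, 5.22 and 4.75 FPKM with HGF, against 5.75, 5.68 and 5.29 FPKM in controls (log2 -0.02 ± 0.07, adjusted p = 0.871). In both genes HGF 3 was the lowest HGF library and Control 3 the lowest control, and the groups overlapped after TMM scaling. Slx4, the scaffold for structure-specific nucleases, had 4.56, 4.43 and 4.44 FPKM with HGF, against 5.57, 5.31 and 5.08 FPKM in controls. Its groups did not overlap, and the estimate was small and missed the threshold (log2 -0.15 ± 0.06, adjusted p = 0.0567).

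**Figure D2:**
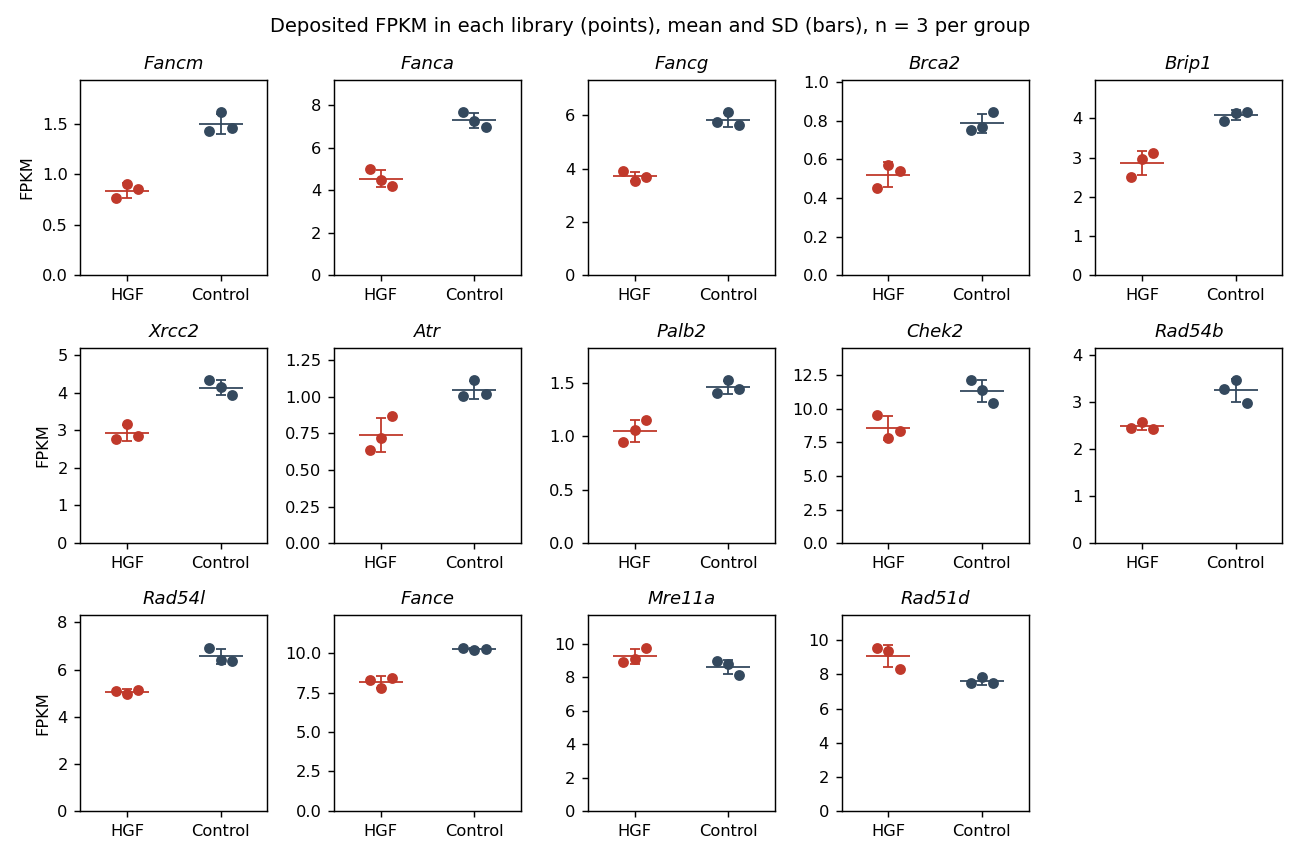
Deposited FPKM (y axis, from 0) of the 14 genes that passed the test, in the 3 HGF libraries (left) and the 3 control libraries (right) of each panel, with the mean and SD. In the 12 genes from Fancm to Fance every HGF library is below every control, whereas Mre11a, with 8.92 FPKM in HGF 1 and 8.96 in Control 1, separates only after TMM scaling.

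Among BRCA proteins and their partners 3 of 5 genes were lower and 0 higher: Brca2, Palb2 and Brip1 fell, and Brca1 and Bard1 gave no call. Brca2 (ENSMUSG00000041147, chromosome 5, 150522630 to 150570329, plus strand), the loader of the recombinase, had 0.450, 0.572 and 0.541 FPKM with HGF, against 0.753, 0.767 and 0.844 FPKM in controls. It had the lowest level of all members in each library group and fell by 29.2% without overlap (log2 -0.50 ± 0.12, adjusted p = 0.00907). Palb2 (ENSMUSG00000044702, chromosome 7, 122107262 to 122132919, minus strand), the bridge between BRCA1 and BRCA2, had 0.943, 1.06 and 1.15 FPKM with HGF, against 1.40, 1.52 and 1.44 FPKM in controls. The highest HGF value lay under the lowest control (log2 -0.37 ± 0.10, adjusted p = 0.0174). Brip1 (ENSMUSG00000034329, chromosome 11, 86058138 to 86201193, minus strand), a helicase that binds BRCA1 and is also Fanconi protein J, had 2.51, 2.96 and 3.12 FPKM with HGF, against 3.93, 4.15 and 4.15 FPKM in controls. It fell by 25% (log2 -0.41 ± 0.09, adjusted p = 0.00589).

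Brca1 (ENSMUSG00000017146, chromosome 11, 101488764 to 101551955, minus strand), the ubiquitin ligase that promotes end resection, had 7.61, 7.93 and 8.22 FPKM with HGF, against 8.63, 9.16 and 8.36 FPKM in controls. It was the most abundant of these 5 genes per length, and its estimate was near 0 (log2 -0.04 ± 0.05, adjusted p = 0.552). Bard1, its obligate partner, had 3.22, 3.48 and 3.48 FPKM with HGF, against 3.62, 4.32 and 3.83 FPKM in controls. The HGF values lay just under the controls in FPKM and overlapped them after TMM scaling (log2 -0.11 ± 0.08, adjusted p = 0.314).

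The recombinase paralogs, which form the BCDX2 complex (RAD51B, RAD51C, RAD51D and XRCC2) and the CX3 complex (RAD51C and XRCC3), did not move together. Rad51d (ENSMUSG00000018841, chromosome 11, 82876434 to 82890614, minus strand) had 9.56, 9.36 and 8.33 FPKM with HGF, against 7.50, 7.85 and 7.50 FPKM in controls. It was the member with the largest rise, 27.5% with no overlap (log2 0.35 ± 0.07, adjusted p = 0.00349). Xrcc2 (ENSMUSG00000028933, chromosome 5, 25689812 to 25705825, minus strand), whose protein binds RAD51D directly, had 2.77, 3.16 and 2.84 FPKM with HGF, against 4.33, 4.14 and 3.93 FPKM in controls. It fell by 24.5% (log2 -0.40 ± 0.08, adjusted p = 0.00386). Rad51b, at 202 to 313 counts, had 0.748, 0.822 and 0.793 FPKM with HGF, against 0.978, 1.14 and 1.25 FPKM in controls, and the estimate was as large as that of Xrcc2 but missed the threshold (log2 -0.42 ± 0.15, adjusted p = 0.054). Rad51c, the subunit common to both complexes, had 2.72, 2.89 and 2.74 FPKM with HGF, against 3.38, 3.39 and 3.39 FPKM in controls, with no overlap and no call (log2 -0.19 ± 0.07, adjusted p = 0.0748). Xrcc3 averaged 2.47 ± 0.0714 FPKM with HGF and 2.81 ± 0.442 FPKM in controls (SD, n = 3 each; log2 -0.09 ± 0.12, adjusted p = 0.617 in edgeR), and Control 3 at 2.33 FPKM lay below all HGF libraries.

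The Rad54 genes, whose translocases act on the recombinase filament during strand exchange, both fell. Rad54l (ENSMUSG00000028702, chromosome 4, 116094264 to 116123690, minus strand) had 5.10, 4.95 and 5.15 FPKM with HGF, against 6.92, 6.40 and 6.34 FPKM in controls. The HGF libraries had an SD of 0.102 FPKM, and the change was a fall of 17.4% (log2 -0.28 ± 0.06, adjusted p = 0.00439). Rad54b (ENSMUSG00000078773, chromosome 4, 11558922 to 11615805, plus strand) had 2.45, 2.57 and 2.42 FPKM with HGF, against 3.29, 3.47 and 2.99 FPKM in controls, without overlap (log2 -0.29 ± 0.08, adjusted p = 0.0153). Rad52, a mediator with a limited role in mammals, had 1.56, 1.57 and 1.57 FPKM with HGF, against 1.66, 1.60 and 1.80 FPKM in controls, with an estimate near 0 (log2 -0.01 ± 0.09, adjusted p = 0.958).

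**Figure D3:**
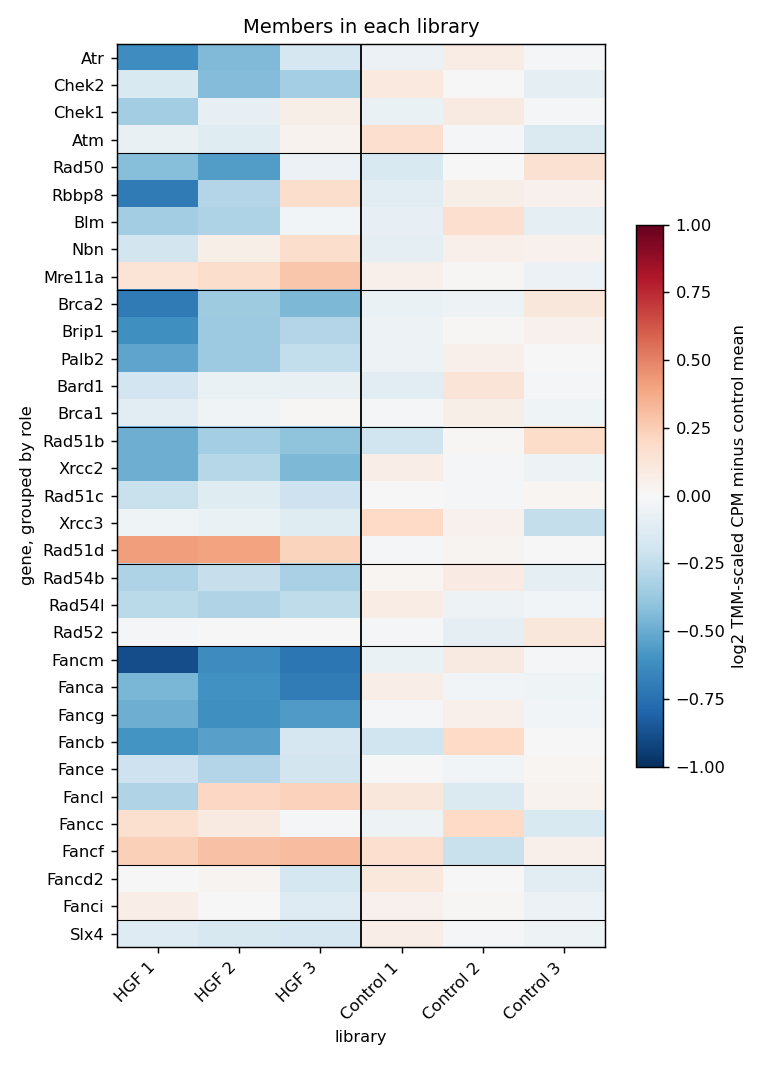
Log2 TMM-scaled CPM of each member (rows, by role) in each library (columns), minus the mean of the 3 controls. Blue rows such as Fancm, Fanca and Fancg are low in all 3 HGF libraries, Rad51d is red in all 3, and Rad50, Rbbp8 and Chek1 differ between the HGF libraries.

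Of the genes for end sensing, resection and unwinding 1 of 5 rose and 0 fell. Mre11a (ENSMUSG00000031928, chromosome 9, 14784654 to 14837123, plus strand), the nuclease of the MRN complex, had 8.92, 9.11 and 9.77 FPKM with HGF, against 8.96, 8.79 and 8.17 FPKM in controls. In FPKM HGF 1 and Control 1 met, and after TMM scaling the groups separated by a small step (log2 0.20 ± 0.06, adjusted p = 0.0245). Rad50, the ATPase arm of the same complex, had 5.25, 4.73 and 6.75 FPKM with HGF, against 6.74, 7.59 and 8.22 FPKM in controls. HGF 3 reached the lowest control, and the estimate missed the threshold (log2 -0.34 ± 0.13, adjusted p = 0.0702). Nbn, the remaining subunit, had 4.97, 5.84 and 6.36 FPKM with HGF, against 5.65, 6.30 and 6.09 FPKM in controls (log2 0.02 ± 0.10, adjusted p = 0.875). Rbbp8, which encodes the resection factor CtIP, had 0.784, 1.03 and 1.44 FPKM with HGF, against 1.27, 1.44 and 1.39 FPKM in controls, so HGF 3 was above every control in FPKM while HGF 1 was below every one (log2 -0.23 ± 0.19, adjusted p = 0.369). Blm, the helicase that dissolves crossed intermediates, averaged 2.47 ± 0.312 FPKM with HGF and 3.09 ± 0.362 FPKM in controls (SD, n = 3 each; log2 -0.22 ± 0.11, adjusted p = 0.135 in edgeR).

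One kinase of each checkpoint pair fell. Atr (ENSMUSG00000032409, chromosome 9, 95857597 to 95951644, plus strand), the kinase of stalled forks, had 0.635, 0.716 and 0.867 FPKM with HGF, against 1.003, 1.11 and 1.02 FPKM in controls. Every HGF library was below every control (log2 -0.40 ± 0.11, adjusted p = 0.0199). Chek1, the kinase that ATR activates, had 2.86, 3.41 and 3.78 FPKM with HGF, against 3.69, 4.16 and 3.77 FPKM in controls, and HGF 3 lay among the controls (log2 -0.12 ± 0.11, adjusted p = 0.441). Chek2 (ENSMUSG00000029521, chromosome 5, 110839979 to 110874133, plus strand), the kinase that ATM activates, had 9.57, 7.80 and 8.36 FPKM with HGF, against 12.1, 11.4 and 10.5 FPKM in controls. It was the most abundant member per length in the controls and fell by 19.2% (log2 -0.31 ± 0.09, adjusted p = 0.0208). Atm, the kinase of double-strand breaks, had 1.24, 1.19 and 1.33 FPKM with HGF, against 1.57, 1.39 and 1.24 FPKM in controls (log2 -0.06 ± 0.10, adjusted p = 0.673), and its lowest control equalled HGF 1 to 3 digits.

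Some of the calls depended on single libraries. Atr lost its call without HGF 1, HGF 2 or Control 2 (adjusted p = 0.0527, 0.0723 and 0.0761 in edgeR), and Palb2 without the same 3 (adjusted p = 0.0536, 0.0557 and 0.0664). Chek2 lost it without HGF 2, HGF 3, Control 1 or Control 2 (adjusted p = 0.0624 to 0.105). Rad54b lost it without HGF 1 or Control 2, Fance without HGF 2, and Mre11a without Control 2 or Control 3. The call for Mre11a was also lost with library totals only (log2 0.096, edgeR adjusted p = 0.211) and in the limma fits on FPKM described below. The lower calls of Fancm, Fanca, Fancg, Brip1, Xrcc2 and Rad54l and the higher call of Rad51d held under all 19 alternatives tried, and that of Brca2 under the 17 in which it was tested. Without HGF 3, Rad50, Rbbp8, Fancb and Blm passed the threshold as lower (log2 -0.48, -0.47, -0.56 and -0.32, edgeR adjusted p = 0.00972, 0.0256, 0.0212 and 0.0423). Of the 19 alternatives, Fancb passed it in 10, Rad50 in 9, Slx4 in 7, Rad51c in 4, Blm in 2 and Rbbp8 in 1. Rad51b passed it in 3 of the 17 in which it was tested.

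Ratios within a library do not depend on its scaling, and 16 ratios between genes whose proteins bind or act on each other, chosen with these data known, were compared. Values are FPKM ratios, and with 3 libraries against 3 the exact two-sided permutation test cannot go below 0.1, which is 0.178 after adjustment over the 16. The ratio was lower in every HGF library than in every control for 9 pairs, and the groups overlapped in the other 7. Which gene stands on top sets the direction and was also chosen with the data known, the share over gene pairs in general was not measured, and single genes did not overlap in 51.4% of all tested, so nothing is read from the count. Xrcc2 to Rad51d was 0.290, 0.337 and 0.341 with HGF, against 0.578, 0.528 and 0.524 in controls (log2 difference -0.75 ± 0.09), the widest step of the 16. Fancm to Fancd2 was 0.151, 0.177 and 0.192 with HGF, against 0.247, 0.297 and 0.297 in controls (log2 difference -0.69 ± 0.13). Rad50 to Mre11a, partners in one complex, was 0.588, 0.520 and 0.691 with HGF, against 0.752, 0.863 and 1.01 in controls (log2 difference -0.54 ± 0.17). These 3 pairs each hold a gene that fell or had a negative estimate beside one that rose or had an estimate near 0.

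Relative to Brca1, Brca2, Palb2 and Brip1 were lower in every HGF library than in every control. Brca2 to Brca1 was 0.0591, 0.0721 and 0.0658 with HGF, against 0.0872, 0.0837 and 0.101 in controls (log2 difference -0.46 ± 0.12). Palb2 to Brca1 was 0.124, 0.133 and 0.140 with HGF, against 0.163, 0.166 and 0.172 in controls (log2 difference -0.34 ± 0.06). Brip1 to Brca1 was 0.330, 0.373 and 0.380 with HGF, against 0.455, 0.453 and 0.497 in controls (log2 difference -0.38 ± 0.08). Bard1 to Brca1 overlapped, with 0.423, 0.439 and 0.424 with HGF, against 0.420, 0.472 and 0.459 in controls (log2 difference -0.07 ± 0.05, exact permutation p = 0.4). Atr to Chek1 was 0.222, 0.210 and 0.229 with HGF, against 0.272, 0.268 and 0.271 in controls (log2 difference -0.29 ± 0.04), although Chek1 itself overlapped between the groups. Chek2 to Atm and Rad51b to Rad51c were the remaining pairs without overlap (log2 difference -0.25 ± 0.10 and log2 difference -0.23 ± 0.11). Both separated narrowly. Chek2 to Atm was 7.71 in HGF 1 and 7.75 in Control 1. For Rad51b to Rad51c, HGF 3 was at 0.2892 and Control 1 at 0.2896.

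In the other 7 pairs the groups overlapped. Fanca to Fancg was 1.28, 1.26 and 1.14 with HGF, against 1.34, 1.19 and 1.24 in controls (log2 difference -0.03 ± 0.07, exact permutation p = 0.7). Fanci to Fancd2 was 1.08, 1.02 and 1.07 with HGF, against 0.991, 1.04 and 1.07 in controls (log2 difference 0.03 ± 0.04, exact permutation p = 0.6). Fancb to Fancl, Fance to Fancc, Nbn to Mre11a and Xrcc3 to Rad51c also overlapped, with log2 differences of -0.48 ± 0.23, -0.31 ± 0.14, -0.18 ± 0.10 and 0.11 ± 0.14 (SE).

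**Figure D4:**
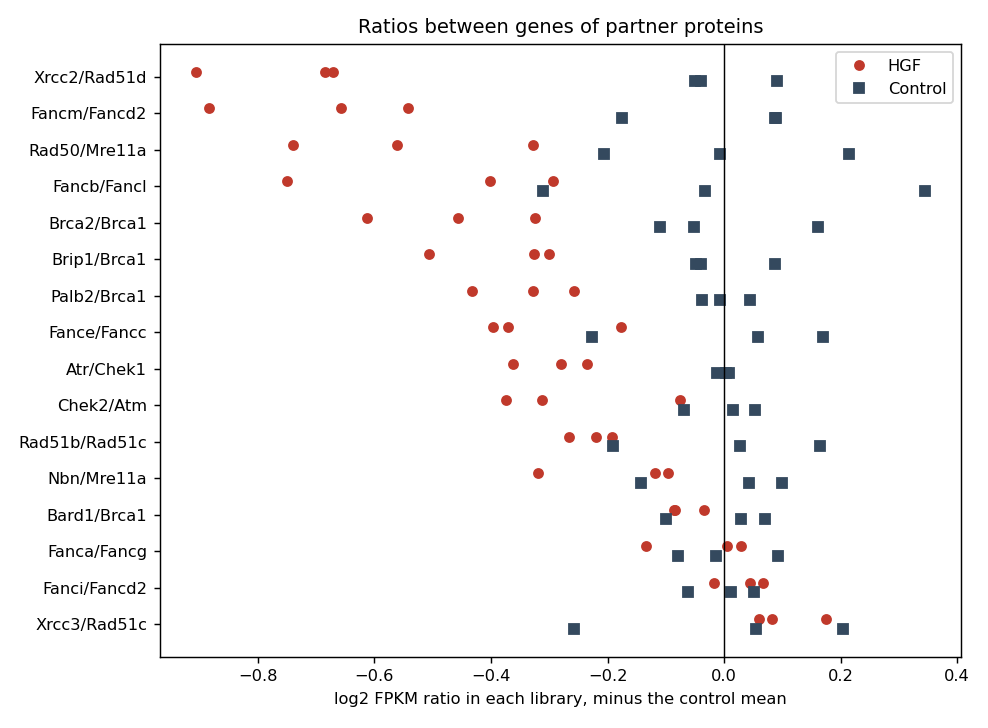
Log2 FPKM ratio of 16 pairs of partner genes in each library (x axis, minus the control mean; circles, HGF; squares, control). The HGF libraries lie left of all controls in 9 pairs, from Xrcc2/Rad51d (log2 difference -0.75) to Rad51b/Rad51c (-0.23), and overlap them in 7.

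Neighbouring genes were examined because a count without known strand could mix overlapping genes. By the GENCODE M21 annotation (GRCm38), 13 members overlap a tested gene on the opposite strand. Fanca shares 1446 bases with Zfp276, which also fell (log2 -0.41 ± 0.08, adjusted p = 0.00518). The coding gene Gm20388, which has no deposited values, overlaps Fanca by 50277 bases on the opposite strand. Rad54l shares 2780 bases with Lrrc41, which rose (log2 0.33 ± 0.05, adjusted p = 7.23e-04), the opposite of Rad54l. Rad54b overlaps the antisense RNA Gm11832 by 3869 bases, which was lower as well (log2 -1.05 ± 0.35, adjusted p = 0.0443). On its own strand it overlaps the coding gene Fsbp by 7927 bases, which gave no call (log2 0.13 ± 0.25, edgeR adjusted p = 0.73). Fancf shares 253 bases with Gas2, which rose (log2 0.40 ± 0.10, adjusted p = 0.011). Xrcc3 overlaps Klc1 by 4653 bases, which was slightly higher (log2 0.15 ± 0.05, adjusted p = 0.0488). The tested opposite-strand neighbours of the remaining members among the 13 gave no call, such as Polg beside Fanci (edgeR adjusted p = 0.0859). Of all genes tested, 38.5% were called. The sources used here do not say whether counting used strand, and the share of such reads in these members was not tested.

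Some members start head to head with another gene. A tested coding gene starts within 1000 bases on the opposite strand for 12 members, and 3 of these 12 neighbours fell and 1 rose. Among all genes tested, 19.3% were called lower and 19.1% higher, so nothing is read from this count. Palb2 and its neighbour Dctn5, a dynactin subunit gene 56 bases away, both fell (log2 -0.17 ± 0.05, adjusted p = 0.035). Emc3, whose start lies 30 bases from that of Fancd2, fell (log2 -0.34 ± 0.05, adjusted p = 8.72e-04), and Nbr1, an autophagy receptor gene 194 bases from Brca1, fell (log2 -0.15 ± 0.04, adjusted p = 0.012), while Fancd2 and Brca1 gave no call. Pomgnt1 beside Rad54l and Hscb beside Chek2 gave no call (log2 0.06 ± 0.06, adjusted p = 0.472, and log2 -0.03 ± 0.11, adjusted p = 0.841). The difference between a member and its neighbour was not tested.

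Members were longer and poorer in G and C than tested genes as a whole. The longest annotated transcript had a median of 3944 bases for members and 2897 for the 17301 tested genes with a value, and a median GC content of 45.9% against 49.8%. Of the 33 members, 21 fell in the lowest of 3 equal classes of genes by GC content, where the median log2 fold change of all genes was -0.11 and 23.0% were lower. Within that class the members' median was -0.22 and 6 of 21 were lower, against 4 of 7 in the middle class and 2 of 5 in the highest. Of all genes, 17.2% were lower in the middle class and 17.9% in the highest. A correction for GC content in each library left 13 members lower and 2 higher with a median of -0.17, and a correction for transcript length left 12 and 2 with the same median. HGF 1 was the lowest HGF library in 19 of 33 members (37.3% of all genes tested), and without it the median was -0.16 with 9 members lower.

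Other genes of recombination and Fanconi repair, listed with results of these data known, gave 16 lower and 3 higher of 35 (median log2 -0.15). These are 45.7% and 8.57%, beside 19.3% and 19.1% of all genes tested. Rad51ap1, a stimulator of strand invasion, averaged 3.57 ± 0.223 FPKM with HGF and 5.45 ± 0.0724 FPKM in controls (SD, n = 3 each) and fell (log2 -0.51 ± 0.07, adjusted p = 6.44e-04 in edgeR). Mms22l and Tonsl, partners in one complex at stalled forks, both fell (log2 -0.33 ± 0.05, adjusted p = 0.00118, and log2 -0.41 ± 0.07, adjusted p = 0.00142). Sfr1, a recombination mediator, rose (log2 0.32 ± 0.04, adjusted p = 5.45e-04). Of 18 checkpoint and break-signalling partners 5 fell (27.8%) and 2 rose (11.1%), with a median of -0.13. The 4 with the smallest p all fell, namely the clamp loader gene Rad17 (log2 -0.47 ± 0.10, adjusted p = 0.00679), the CHEK1 activator gene Clspn (log2 -0.33 ± 0.07, adjusted p = 0.00715), and Brcc3 and Abraxas1 of the BRCA1-A complex (log2 -0.41 ± 0.10, adjusted p = 0.00937, and log2 -0.43 ± 0.11, adjusted p = 0.015).

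End joining, the competing route for breaks, had 2 genes lower (11.1%) and 3 higher (16.7%) of 18 (median 0.0011). Neither share was above that of all genes tested, 19.3% lower and 19.1% higher. Xrcc6 and Xrcc5, which encode the Ku70 and Ku80 subunits, both rose, Xrcc5 averaging 20.1 ± 0.698 FPKM with HGF and 16.3 ± 0.906 FPKM in controls (log2 0.31 ± 0.04, adjusted p = 5.40e-04, and log2 0.40 ± 0.06, adjusted p = 8.52e-04). Rif1, which limits resection, and Polq, the polymerase of microhomology joining, fell (log2 -0.40 ± 0.08, adjusted p = 0.00344, and log2 -0.45 ± 0.09, adjusted p = 0.004). Mismatch and excision repair genes gave 8 lower (38.1%) and 5 higher (23.8%) of 21 (median -0.15). Apex1, the abasic site endonuclease, rose and Polb, the gap-filling polymerase, fell (log2 0.93 ± 0.06, adjusted p = 7.76e-06, and log2 -0.73 ± 0.08, adjusted p = 2.00e-04), while the glycosylase genes Nthl1 and Neil3 went opposite ways (log2 0.39 ± 0.07, adjusted p = 0.00244, and log2 -0.53 ± 0.09, adjusted p = 0.00164).

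The DNA replication genes, with which recombination genes share their phase of the cell cycle, had more members higher than lower. Over all genes tested, 19.3% were lower and 19.1% higher. Of 40 G1/S and replication genes 2 fell and 15 rose (median 0.06), with Mcm3, Mcm6 and Mcm7 of the replicative helicase and the methylation maintenance gene Uhrf1 leading (log2 0.57 ± 0.05, adjusted p = 7.98e-05 for Mcm3, and log2 0.43 ± 0.04, adjusted p = 4.01e-05 for Uhrf1). Of 24 G2/M and mitosis genes 10 fell and 3 rose (median -0.13), among them the kinetochore genes Cenpf and Cenpe, the checkpoint kinase gene Bub1 and the cytokinesis motor gene Kif23 (log2 -0.71 ± 0.10, adjusted p = 6.05e-04 for Cenpf, and log2 -0.75 ± 0.12, adjusted p = 0.00173 for Cenpe). The Met gene, which encodes the HGF receptor, had 6.32 ± 0.363 FPKM with HGF and 6.08 ± 0.312 FPKM in controls (SD, n = 3 each; edgeR adjusted p = 0.0819). The lists are set side by side as counts, and the difference between lists was not tested.

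**Figure D5:**
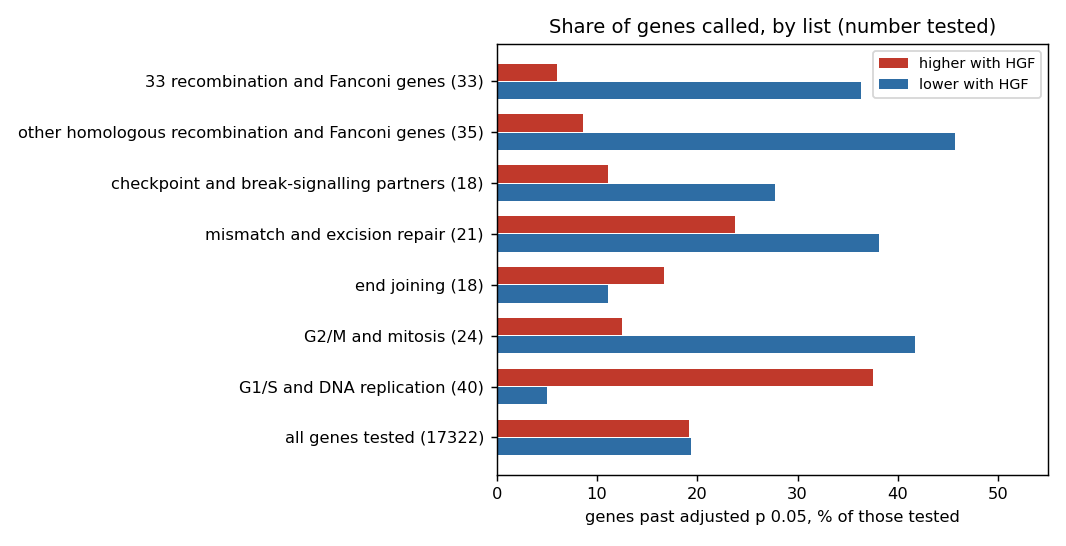
Share of tested genes past adjusted p 0.05 (x axis, percent) that were higher (red) or lower (blue) with HGF in each list (y axis, number tested). The 33 recombination and Fanconi genes have 36.4% lower and 6.06% higher, where all 17322 genes have 19.3% and 19.1%. Members and lists were chosen with earlier results of these data known.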

How the data were processed

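Paired-end libraries of poly(A) RNA were run on an Illumina NovaSeq instrument, as stated in the labels. The authors deposited whole-number counts and FPKM per gene for 6 libraries, per the file headers. The submitters' processing notes list the build mm8 and the tools HISAT2 2.0, StringTie 1.3.0 and Bowtie 0.12.2 without their roles, and the sources used here do not state the strand of counting. Of 28133 gene identifiers shared with GENCODE M21 (GRCm38), 90.1% carry its coordinates, as do 25 of the 33 members, so coordinates are printed as deposited. All 12 value columns were used.

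Groups came from the titles. Low counts were removed by filterByExpr, TMM scaling followed (factors 0.963 to 0.968 with HGF, 1.03 to 1.04 in controls), and edgeR 4.0.16 (R 4.3.3) gave quasi-likelihood tests, two-sided, adjusted by Benjamini-Hochberg across 17322 genes. The SE is the log2 fold change divided by the square root of F. The test was checked on simulated data. Members and lists were chosen with earlier results of these data known. All members were named, and of each other list up to 4 called genes, taken in order of p. Alternatives were DESeq2 1.42.0, 2 other filters, 3 scalings, counts divided by 4, a replicate block, each library left out, and limma 3.58.1 on log2(FPKM + 1) or log2(FPKM + 0.1), whose fold changes are on the log2(FPKM + pseudocount) scale, which understates the change of low genes. Corrections for GC content and transcript length were added after seeing the data. Chi-square values per degree of freedom between libraries of a group were 2.72 to 7.04 on counts divided by 4, above sampling noise, and each library was counted once.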

Additional observations from a re-analysis of the deposited data

How the results depend on the processing

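The count of members lower with HGF was 12 as reported, 8 to 15 with a library left out and 12 to 18 under the other alternatives. The count of members higher was 2, and 1 with library totals only, in the 3 limma fits, and without Control 2 or Control 3 (1 to 2 with a library left out). The median log2 fold change of members was -0.22 as reported, -0.32 with library totals only, -0.17 with the GC correction and -0.17 with the length correction, and -0.24 to -0.16 with a library left out. With library totals only, members without overlap were 20 lower and 1 higher. Of 17322 genes, 3316 were higher and 3349 lower as reported. Of the 11760 genes in the limma fits, 2041 were higher and 4257 lower on log2(FPKM + 1), and 1984 and 4146 on log2(FPKM + 0.1). The cause of these differences was not tested.

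Signs reversed in 9 members, none of which passed the test. With DESeq2 the log2 fold change of Rad52 was 0.012 and of Fanci 0.0026. With median-of-ratios scaling these were 0.012 and 0.0028, and with upper-quartile scaling Rad52 was at 0.0041. With library totals only Nbn was at -0.076, Fancc at -0.027 and Fancl at -0.036. With limma on log2(FPKM + 1), at either filter, they were -0.065, -0.0092 and -0.026, and on log2(FPKM + 0.1) they were -0.076, -0.013 and -0.044. With the GC correction Atm was at 0.058, Chek1 at 0.058 and Rad52 at 0.017, and with the length correction Rad52 was at 0.033 and Fanci at 0.039. With a library left out, Atm ranged from -0.13 to 0.029, Fancd2 from -0.10 to 0.025, Fanci from -0.060 to 0.052, Fancl from -0.014 to 0.22, Nbn from -0.044 to 0.12, Rad52 from -0.053 to 0.051 and Xrcc3 from -0.20 to 0.016.

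With the replicate number as a block, 14 members were lower and 2 higher, with Rad50 and Fancb added (edgeR adjusted p = 0.0147 and 0.0380), and 3406 and 3440 of all genes were higher and lower. Same-numbered libraries had correlations of their deviations of 0.104, 0.0326 and 0.0617, and each HGF library correlated best with the control of its own number. These correlations are small, and some control must correlate best with each HGF library. The match comes from the data and not the design, so no pairing is read from it.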
